A study of Homo sapiens with 8 samples.

Results

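The class I histone deacetylases HDAC1, HDAC2, HDAC3 and HDAC8, together with the corepressor subunits RCOR1, SIN3A, MTA1, MTA2 and NCOR1, were followed by RNA sequencing in ovarian cancer cells with and without functional BRCA1. These 9 genes were taken from the count table by symbol, 9 of the 25369 named genes it lists, and all 9 passed the filter on low counts that left 17714 genes for testing. The cells were UWB1.289, an established line from a human ovarian carcinoma whose BRCA1 frameshift mutation leaves a truncated protein (BRCA1-null), and the same line transduced with wild-type BRCA1 (BRCA1+), each a single derived line. Each was given 0.5 uM entinostat, a benzamide inhibitor of class I histone deacetylases, or its solvent DMSO (control) for 24 h, which makes 4 groups of 2 libraries. All groups therefore share the UWB1.289 background, and for the BRCA1-null libraries the labels name no empty vector.

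Histone deacetylases remove acetyl groups from histone tails, and loss of acetylation generally goes with more compact and less active chromatin. HDAC1 and HDAC2 are closely related enzymes that act inside multi-subunit complexes: NuRD, which is built around MTA1, MTA2 or MTA3, the SIN3 complex, which is assembled on SIN3A or SIN3B, and CoREST, in which RCOR1 holds the deacetylase together with the histone demethylase KDM1A. HDAC3 is the catalytic subunit of the NCoR complex and is activated by its scaffold NCOR1, whereas HDAC8 works outside these complexes and deacetylates the cohesin subunit SMC3. BRCA1, a DNA repair protein of homologous recombination, is lost in some high-grade serous ovarian carcinomas.

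Of the members, HDAC1, HDAC2 and HDAC3 had the lowest log2 fold changes in BRCA1-null against BRCA1+ controls. SIN3A and MTA2 were the only members called higher there. These 5 are introduced by the 250 bases before their transcription start. RCOR1 and NCOR1, also called lower in controls, are not printed. Any part of promoter sequence in the differences between the lines was not tested. The sequences are those of RefSeq on GRCh38.p14, read 5′ to 3′ on the strand of the gene. Capitals mark the GC box GGGCGG, the core site of SP-family activators, on either strand (CCGCCC).
HDAC1: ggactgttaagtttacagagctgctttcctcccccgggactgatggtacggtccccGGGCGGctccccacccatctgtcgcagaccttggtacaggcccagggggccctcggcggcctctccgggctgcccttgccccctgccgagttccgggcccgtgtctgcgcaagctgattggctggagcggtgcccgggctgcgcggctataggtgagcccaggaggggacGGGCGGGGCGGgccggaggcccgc
HDAC2: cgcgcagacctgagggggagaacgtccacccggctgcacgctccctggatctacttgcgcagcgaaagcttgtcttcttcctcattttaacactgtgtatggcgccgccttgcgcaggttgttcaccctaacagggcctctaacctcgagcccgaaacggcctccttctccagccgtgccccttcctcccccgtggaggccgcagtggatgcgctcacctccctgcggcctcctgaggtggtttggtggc
HDAC3: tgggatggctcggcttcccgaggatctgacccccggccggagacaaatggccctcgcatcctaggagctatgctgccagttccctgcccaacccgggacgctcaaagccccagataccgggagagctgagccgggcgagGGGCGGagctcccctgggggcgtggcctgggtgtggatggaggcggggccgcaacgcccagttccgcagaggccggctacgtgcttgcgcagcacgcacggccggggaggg
SIN3A: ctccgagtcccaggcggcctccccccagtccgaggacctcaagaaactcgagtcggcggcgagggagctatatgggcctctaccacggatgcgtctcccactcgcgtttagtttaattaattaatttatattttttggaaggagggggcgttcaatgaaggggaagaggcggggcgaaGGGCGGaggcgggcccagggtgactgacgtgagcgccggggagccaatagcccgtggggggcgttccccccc
MTA2: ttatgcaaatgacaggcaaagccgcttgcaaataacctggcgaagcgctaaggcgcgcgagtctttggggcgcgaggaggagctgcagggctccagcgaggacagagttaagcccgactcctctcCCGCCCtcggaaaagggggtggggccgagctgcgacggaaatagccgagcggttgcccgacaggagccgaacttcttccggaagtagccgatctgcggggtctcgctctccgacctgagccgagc
The HDAC1 window held 3 matches to the GC box, of which a pair overlap in one capital run, and the HDAC3, SIN3A and MTA2 windows held 1 each. The HDAC2 window held 0. The GC box was found in 42.3% of 27305 RefSeq promoters of the same length, so members of both directions hold it, as do many other promoters. The CCAAT box (CCAAT or ATTGG) was present in HDAC1 and SIN3A and in 33.0% of all promoters, the TATA box (TATAAA or TTTATA) in SIN3A and in 11.1%, and the ETS core (CCGGAAG or CTTCCGG) in MTA2, with 2 matches that overlap on opposite strands, and in 8.82%. The TATA box match of SIN3A, read as TTTATA, began at base -126 relative to the transcription start. The palindromes TGACGTCA and CACGTG had no match in these windows. GC content was 71.6% for HDAC1, 70.8% for HDAC3, 63.2% for both HDAC2 and MTA2 and 62.0% for SIN3A, against a median of 58.0% over all promoters.

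Sequencing depth was high and even, with 31900158 to 53549893 gene counts per library, and replicate libraries differed by more than sampling noise, so none was a repeat of another. The labels do not say whether the replicates came from separate cultures, so the p-values below measure only the spread between these libraries, which may be technical. As a check of the labels, BRCA1 stood at 98.9 and 92.3 CPM (counts scaled to a common library size) in BRCA1+ controls, 133 and 118 CPM in BRCA1+ with entinostat, 21 and 22.4 CPM in BRCA1-null controls and 17.6 and 19.2 CPM in BRCA1-null with entinostat. The restored gene was thus seen in the BRCA1+ libraries, while the remaining BRCA1-null transcript carries the mutation and its level does not check it. Of 8 epithelial and ovarian carcinoma markers, PAX8 (329 to 419 CPM) and EPCAM (506 to 638 CPM) were abundant, but WT1 was nearly absent at 1 to 20 counts per library. Of these 8 markers 1 was higher and 3 were lower by the test in the BRCA1-null line under either treatment, and 3 were called higher with entinostat averaged over both lines. The summed level of 10 markers of other cell types was 17.2 to 21.7 CPM in BRCA1+ controls, 25.7 to 28.4 CPM in BRCA1+ with entinostat, 29.1 to 31.4 CPM in BRCA1-null controls and 34.7 to 43 CPM in BRCA1-null with entinostat. It thus moved with the groups. Of the 10 markers only 6 passed the filter on low counts and were tested. Of these 6, 2 were called higher in BRCA1-null controls, 2 higher and 2 lower in BRCA1-null cells under entinostat, and 2 higher with entinostat averaged over both lines. The most abundant was CD68 (8.58 to 30.9 CPM), a lysosomal gene that many cell types express, while the T cell marker CD3E had at most 4 counts and the fibroblast marker DCN was at 0 in every library. The part of these markers in the results that follow was not tested.

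To compare the members with each other, counts were divided by the length of each gene's exons as well as by depth (RPKM). The order thus depends on the deposited exonic lengths, such as 2091 bases for HDAC1 and 6929 for HDAC2. Before division by length, HDAC2 had a higher mean CPM than HDAC1 in every group, with 310 against 252 in BRCA1+ controls. Per length, HDAC1 was the most abundant member in every group, with 121 ± 4.07 RPKM (SD, n = 2) in BRCA1+ controls, above 96.1% of all tested genes when averaged over the 8 libraries. MTA2, MTA1, HDAC2, HDAC3 and RCOR1 followed in that order in all 4 groups, and no library of one overlapped with a library of the next within a group. Their group means spanned 58.4 to 76.7 RPKM for MTA2, 51.6 to 53.5 for MTA1, 34.8 to 44.7 for HDAC2, 21.9 to 41.2 for HDAC3 and 13.9 to 18.0 for RCOR1. The large scaffolds NCOR1 and SIN3A lay close together, at 10.3 to 12.0 and 8.73 to 11.3 RPKM, with SIN3A above NCOR1 in BRCA1-null controls and overlapping libraries in BRCA1-null cells with entinostat. HDAC8 was last in all groups at 3.51 to 5.47 RPKM, higher than only 45.8% of the tested genes.

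The first comparison asked how the lines differed in DMSO, that is, in cells given the solvent without entinostat. With a single line of each kind and no empty vector named, BRCA1 status and other differences between the lines cannot be told apart. The 3 deacetylases that sit in corepressor complexes were all lower in BRCA1-null cells, and HDAC3 differed most, at 0.620-fold of its BRCA1+ level. Of the scaffolds, SIN3A and MTA2 were higher and RCOR1 and NCOR1 were lower. Of the 9 members, 2 were called higher and 5 lower by edgeR's quasi-likelihood test at a Benjamini-Hochberg adjusted p under 0.05, in a comparison that called 21.1% of all tested genes higher and 21% lower. The median log2 fold change of the members was -0.25 against 0.012 over all tested genes.

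HDAC3 (hg19 chr5:141000443-141016423, minus strand) had 68.1 and 69.2 CPM in BRCA1+ controls and 42.8 and 42.3 CPM in BRCA1-null controls. The BRCA1-null libraries were far below the BRCA1+ libraries, with a log2 fold change of -0.69 ± 0.059 (SE, n = 2 per group, adjusted p = 2.92e-05). HDAC1 (chr1:32757708-32799224, plus strand) had 246 and 258 CPM in BRCA1+ controls and 177 and 179 CPM in BRCA1-null controls. Both BRCA1-null libraries again lay below both BRCA1+ libraries (log2 fold change -0.51 ± 0.056, adjusted p = 1.18e-04). HDAC2 (chr6:114257320-114292359, minus strand), the partner of HDAC1, had 305 and 315 CPM in BRCA1+ controls and 233 and 249 CPM in BRCA1-null controls. Its groups did not overlap, and its difference was the smallest of the 3 (log2 fold change -0.36 ± 0.057, adjusted p = 0.00100). HDAC8 (chrX:71549366-71792953, minus strand) had 14.8 and 16.0 CPM in BRCA1+ controls and 12.2 and 13.3 CPM in BRCA1-null controls. The groups did not overlap here either, but the difference did not pass the test (adjusted p = 0.103). Its log2 fold change was -0.27, with a 95% interval from -0.545 to 0.0042. Separation of 2 libraries from 2 is weak evidence alone, since an exact permutation test could not give a p below 0.333. The calls for HDAC1, HDAC2 and HDAC3 held in all 14 alternative analyses, with the log2 fold change between -0.54 and -0.46, -0.41 and -0.29, and -0.70 and -0.65.

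Among the scaffolds, SIN3A (chr15:75661720-75748124, minus strand), the platform of the SIN3 complex, had 66.9 and 60.3 CPM in BRCA1+ controls and 81.2 and 76.8 CPM in BRCA1-null controls. Both BRCA1-null libraries were the higher ones (log2 fold change 0.31 ± 0.075, adjusted p = 0.00880). MTA2 (chr11:62360675-62369312, minus strand), a NuRD subunit, had 203 and 197 CPM in BRCA1+ controls and 228 and 243 CPM in BRCA1-null controls. It too was higher in both BRCA1-null libraries (log2 fold change 0.24 ± 0.059, adjusted p = 0.0104). MTA1 (chr14:105886186-105937057, plus strand), its paralog in NuRD, had 152 and 152 CPM in BRCA1+ controls and 145 and 151 CPM in BRCA1-null controls. These libraries nearly coincided, and the log2 fold change was -0.037 with a 95% interval from -0.167 to 0.0932. RCOR1 (chr14:103058996-103196913, plus strand), the CoREST scaffold, had 103 and 90.5 CPM in BRCA1+ controls and 86.4 and 76.0 CPM in BRCA1-null controls. The groups came close to each other without overlap (log2 fold change -0.25 ± 0.086, adjusted p = 0.0415). NCOR1 (chr17:15933408-16118874, minus strand), the scaffold that binds HDAC3, had 123 and 121 CPM in BRCA1+ controls and 107 and 105 CPM in BRCA1-null controls, also without overlap (log2 fold change -0.20 ± 0.061, adjusted p = 0.0250).

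Some scaffold calls were lost when 1 library was left out, with the log2 fold changes of SIN3A, MTA2 and NCOR1 remaining between 0.24 and 0.39, 0.19 and 0.30, and -0.21 and -0.16 over the 14 alternatives. Without BRCA1+ control replicate 2, the calls of SIN3A, MTA2 and NCOR1 were lost, at log2 fold changes of 0.24, 0.21 and -0.21. Without BRCA1-null control replicate 2, those of RCOR1, MTA2 and NCOR1 were lost, at -0.16, 0.19 and -0.19. Fewer genes were also called over the whole table in both fits, each of which left 1 library in a group. Without BRCA1+ control replicate 1 RCOR1 had -0.16 (adjusted p = 0.225) and NCOR1 had an adjusted p of 0.0866, NCOR1 had 0.0914 without BRCA1-null control replicate 1, and RCOR1 had 0.0539 and 0.0538 without either BRCA1-null entinostat library, 0.0800 with upper-quartile scaling and 0.0681 when only the control groups were fitted. Counts are relative to each library's total and do not give the amount of RNA per cell. In these bulk libraries, less RNA of a gene in each cell and a change in the mix of cells cannot be told apart.

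**Figure D1:**
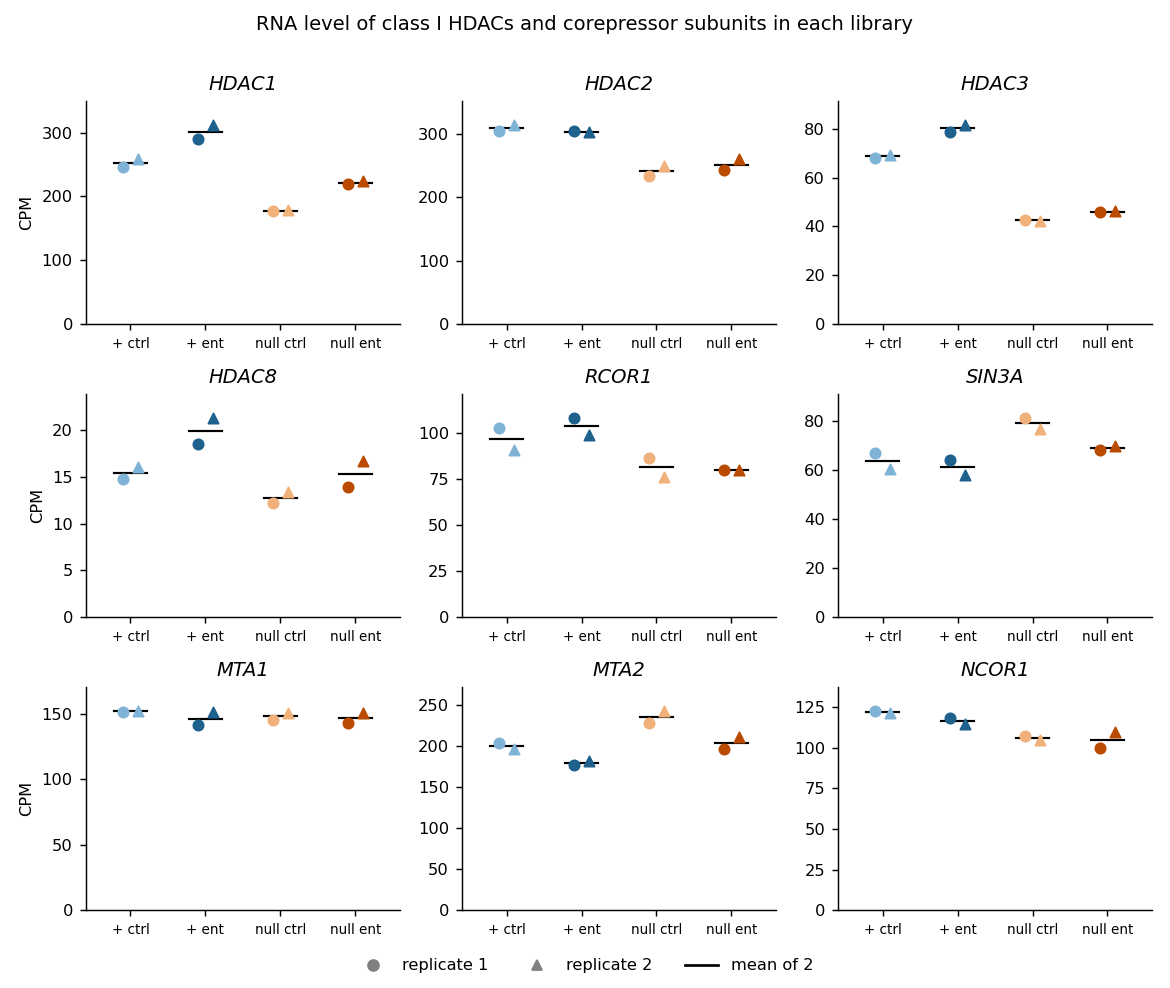
RNA level (CPM, linear axis from 0) of each member in the 8 libraries, by group; circles are replicate 1, triangles replicate 2 and lines the mean of 2. HDAC3 libraries lay at 68.1 CPM or more in BRCA1+ cells and at 46.3 CPM or less in BRCA1-null cells, while MTA1 stayed between 142 and 152 CPM throughout.

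The lines were next compared under entinostat, in other libraries of the same cells. HDAC1, HDAC2, HDAC3, HDAC8 and RCOR1 were lower in BRCA1-null cells and MTA2 was higher, so that 1 member was called higher and 5 lower, where 20.5% of all tested genes were called higher and 18.9% lower. HDAC3 had 78.7 and 81.6 CPM in BRCA1+ and 45.8 and 46.3 CPM in BRCA1-null cells, the widest gap of the set (log2 fold change -0.80 ± 0.059, adjusted p = 1.44e-05). HDAC8 had 18.4 and 21.3 CPM in BRCA1+ and 13.9 and 16.7 CPM in BRCA1-null cells. Its 2 groups were separate and the difference passed the test here (log2 fold change -0.39 ± 0.12, adjusted p = 0.0277), but not without BRCA1-null entinostat replicate 1 (-0.26, adjusted p = 0.178) or BRCA1+ entinostat replicate 2 (-0.28, adjusted p = 0.219). HDAC1 (log2 fold change -0.44), HDAC2 (-0.27) and RCOR1 (-0.37) had adjusted p of 2.56e-04, 0.00481 and 0.00789, and only the RCOR1 call was lost when a library was left out (adjusted p = 0.0517 without BRCA1+ entinostat replicate 1). MTA2 had a log2 fold change of 0.18 (adjusted p = 0.0367), and this call was lost in 8 of 14 alternatives, with adjusted p up to 0.201. SIN3A and NCOR1, both called in DMSO, had log2 fold changes of 0.18 and -0.15 that did not pass the test (adjusted p = 0.0915 and 0.0761), and the change in the difference itself was not called for either, as given below. MTA1 again showed no difference that could be detected (log2 fold change 0.0025, adjusted p = 0.980).

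The second question was how the RNA of the members responded to entinostat, which the authors describe as inhibiting HDAC1 and HDAC3. HDAC1 was higher with entinostat in both lines, by 1.19-fold in BRCA1+ and 1.25-fold in BRCA1-null cells. HDAC3 was called higher in BRCA1+ cells and MTA2 was called lower in BRCA1-null cells. In BRCA1+ cells 2 members were called higher and 0 lower, where the test called 8.15% of all tested genes higher and 6% lower; of all calls in this comparison 57.6% were higher, and 72.5% with upper-quartile scaling. In BRCA1-null cells 1 member was called higher and 1 lower, against 7.57% and 3.19% of all tested genes.

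HDAC1 had 246 and 258 CPM in BRCA1+ controls and 290.5 and 312 CPM with entinostat, and both treated libraries were above both controls (log2 fold change 0.26 ± 0.055, adjusted p = 0.0176). In BRCA1-null cells it had 177 and 179 CPM in controls and 219 and 224 CPM with entinostat. The treated libraries were again the higher ones (log2 fold change 0.32 ± 0.056, adjusted p = 0.0101), and they remained below the untreated BRCA1+ level. HDAC3 had 68.1 and 69.2 CPM in BRCA1+ controls and 78.7 and 81.6 CPM with entinostat (log2 fold change 0.22 ± 0.058, adjusted p = 0.0340). In BRCA1-null cells HDAC3 had 42.8 and 42.3 CPM in controls and 45.8 and 46.3 CPM with entinostat, which did not overlap but did not pass the test (log2 fold change 0.11, adjusted p = 0.263). MTA2 had 203 and 197 CPM in BRCA1+ controls and 177 and 182 CPM with entinostat (log2 fold change -0.16, adjusted p = 0.114). In BRCA1-null cells MTA2 had 228 and 243 CPM in controls and 196 and 210.2 CPM with entinostat, a separation that lay at the threshold (log2 fold change -0.21 ± 0.059, adjusted p = 0.04999).

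These calls within 1 line were fragile. HDAC1 in BRCA1+ cells lost its call without BRCA1+ control replicate 1 (adjusted p = 0.0969), BRCA1+ control replicate 2 (0.0508) or BRCA1+ entinostat replicate 2 (0.145), and in BRCA1-null cells without BRCA1-null control replicate 1 (0.0588) or 2 (0.0580). HDAC3 in BRCA1+ cells was called in 6 of 14 alternatives and lost its call without any 1 of the 4 BRCA1+ libraries (adjusted p from 0.100 to 0.203) and without BRCA1-null control replicate 2 (0.0505), and MTA2 in BRCA1-null cells was called in 4 of 14 and lost its call without any 1 of the libraries of either line (adjusted p from 0.0545 to 0.248).

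Averaged over both lines, which doubles the libraries behind each value, HDAC1, HDAC3 and HDAC8 were higher with entinostat and MTA2 was lower, 3 and 1 of 9 members where 15.2% and 10.9% of all tested genes were called. HDAC1 had a mean log2 fold change of 0.29 ± 0.039 (adjusted p = 0.00113) and was called in all 13 alternatives that could be run. MTA2 had -0.18 ± 0.041 (adjusted p = 0.0114) and was also called in all 13. HDAC3 had 0.17 ± 0.042 (adjusted p = 0.0171). HDAC8, with 14.8 and 16.0 CPM in controls against 18.4 and 21.3 CPM in BRCA1+ cells, and 12.2 and 13.3 against 13.9 and 16.7 CPM in BRCA1-null cells, was higher in every treated library than in the controls of its line (0.32 ± 0.085, adjusted p = 0.0242). HDAC3 and HDAC8 were each called in 9 of 13 alternatives; both lost the call without BRCA1+ control replicate 1 (adjusted p = 0.0520 and 0.0739), BRCA1-null control replicate 1 (0.0506 and 0.0729) or BRCA1+ entinostat replicate 2 (0.0798 and 0.114), HDAC3 also without BRCA1-null control replicate 2 (0.0537) and HDAC8 without BRCA1-null entinostat replicate 2 (0.0756).

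HDAC2 stood apart from HDAC1 under the drug, with 305 and 315 CPM in BRCA1+ controls against 305 and 303 CPM with entinostat, and 233 and 249 against 243 and 261 CPM in BRCA1-null cells. The treated and control libraries overlapped in both lines, and the 95% interval of the averaged log2 fold change ran from -0.0747 to 0.108. RCOR1, SIN3A, MTA1 and NCOR1 did not pass the test with entinostat in either line, with log2 fold changes between -0.20 (SIN3A in BRCA1-null cells) and 0.097 (RCOR1 in BRCA1+ cells). Whether the response to entinostat differed between the lines was tested directly as an interaction. By edgeR 0 of the 9 members and 0% of the 17714 tested genes were called, with 0 members and 827 genes at an unadjusted p under 0.05, while DESeq2 called 11 genes. The members' interaction estimates ran from -0.13 for SIN3A to 0.088 for HDAC2 on the log2 scale, and the smallest adjusted p over all genes was 0.660.

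**Figure D2:**
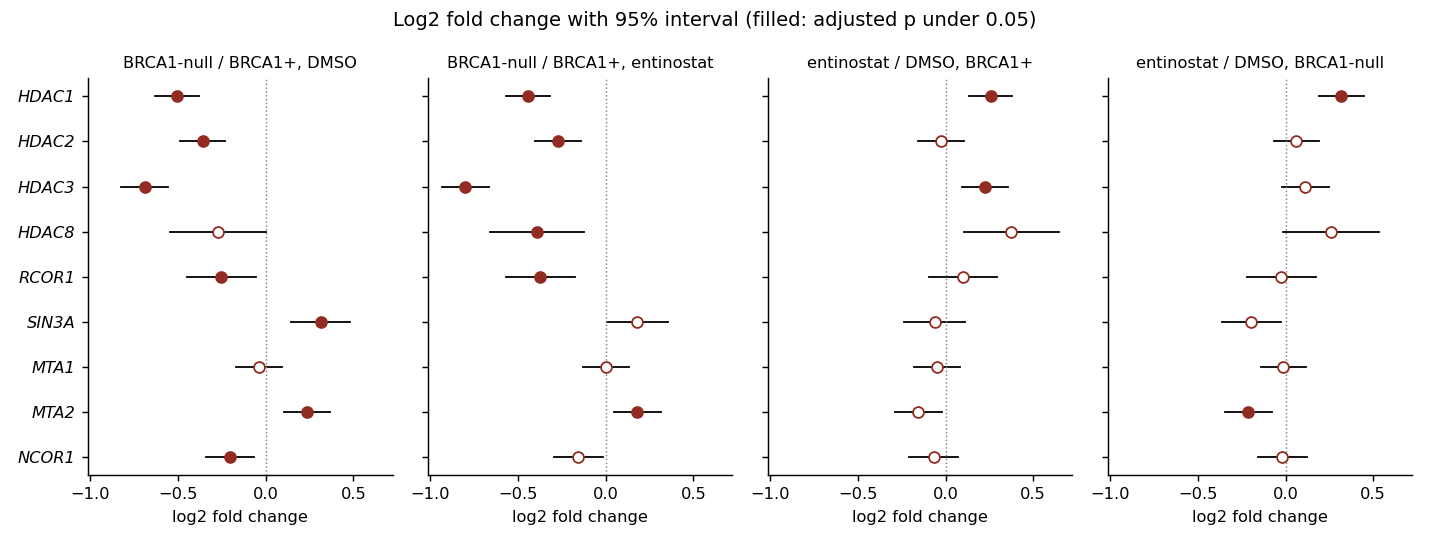
Log2 fold change (points) with its 95% interval (lines) for the 9 members in 4 comparisons, with filled points where the adjusted p was under 0.05. HDAC1, HDAC2 and HDAC3 lay left of 0 in both comparisons of the lines, and HDAC1 lay right of 0 with entinostat in both lines (0.26 and 0.32).

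The unequal changes altered the makeup of the class I deacetylase RNA. Summed over the 4 enzymes, the level was 205 ± 5.75 RPKM (SD, n = 2) in BRCA1+ controls, 235 ± 8.73 in BRCA1+ with entinostat, 145 ± 2.33 in BRCA1-null controls and 170.2 ± 4.03 in BRCA1-null with entinostat, 4 groups that did not overlap. HDAC1 made up 58.7 to 59.1% of the sum in BRCA1+ controls and 60.8 to 62.0% with entinostat, and 58.2 to 58.9% and 61.9 to 62.7% in BRCA1-null cells. HDAC2 took 21.7 to 21.9% in BRCA1+ controls and 18.1 to 19.3% with entinostat, and 23.5 to 24.5% and 20.9 to 21.7% in BRCA1-null cells. In both lines the HDAC1 share was therefore larger and the HDAC2 share smaller in each treated library than in each control. HDAC3 held 17.0 to 17.7% in BRCA1+ cells and 13.7 to 15.3% in BRCA1-null cells, and HDAC8 2.02 to 2.65% throughout. The log2 ratio of MTA1 to MTA2, paralogs that occupy the same place in NuRD, had a mean of -0.28 in BRCA1+ controls, -0.18 in BRCA1+ with entinostat, -0.55 in BRCA1-null controls and -0.36 in BRCA1-null with entinostat, and its 4 groups did not overlap. With 2 libraries against 2 an exact permutation test cannot give a p below 0.333, so these shares and ratios are given as values without a test. Their size also depends on the deposited exonic lengths.

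**Figure D3:**
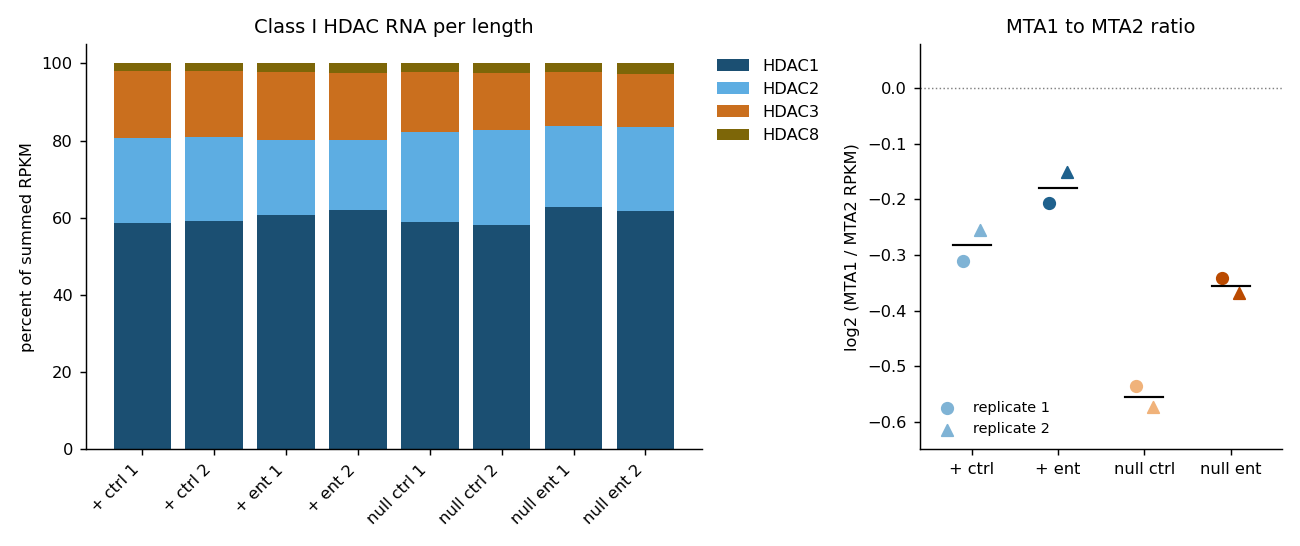
Left, percent of summed class I deacetylase RPKM from HDAC1, HDAC2, HDAC3 and HDAC8 in each library; right, log2 ratio of MTA1 to MTA2 RPKM, with circles for replicate 1, triangles for replicate 2 and lines for means. HDAC1 held between 58.2 and 62.7% in all libraries, and the MTA ratio was lowest in BRCA1-null controls (-0.57 and -0.54).

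Since the lines may differ over whole stretches of chromosome, each member was set beside the 10 tested genes on either side of it. Around HDAC3 on chromosome 5, 19 of 20 neighbours were lower in BRCA1-null controls and 17 were called lower, with a median log2 fold change of -0.38 against -0.69 for HDAC3. Around SIN3A on chromosome 15, 19 of 20 neighbours were higher and 17 were called higher, with a median of 0.59 that exceeded the 0.31 of SIN3A. Around MTA2 on chromosome 11, 18 of 20 were higher and 12 were called higher, with a median of 0.28 against 0.24 for MTA2. These members thus moved in the same direction as nearly all of the genes next to them. The other members did not have such neighbours: the median was -0.11 around HDAC1 (6 of 20 called lower, 3 higher), 0.010 around HDAC2 (3 lower, 4 higher), 0.23 around HDAC8 (2 lower, 5 higher), 0.11 around NCOR1 (2 lower, 3 higher) and -0.13 around RCOR1 (3 lower, 1 higher). HDAC1, HDAC2, HDAC8, RCOR1 and NCOR1 lay below the lower quartile of their neighbours (-0.23, -0.20, -0.25, -0.24 and -0.056), as did HDAC3 (-0.63) and SIN3A (0.43). MTA1, near the end of chromosome 14 with 14 tested neighbours, had a neighbour median of 0.13. Several of these medians changed in sign or size with 5 or 20 neighbours on either side, as given below. The number of gene copies in either line was not measured here, and its part in these differences was not tested.

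**Figure D4:**
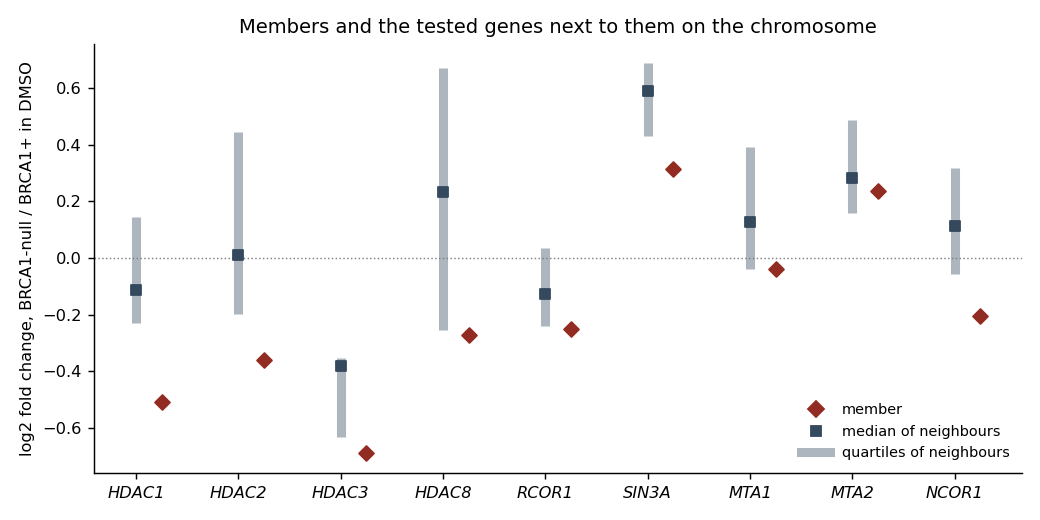
Log2 fold change of BRCA1-null against BRCA1+ in DMSO for each member (diamonds) and the median (squares) and quartiles (bars) of the tested genes within 10 on either side of it. The neighbours of HDAC3 had a median of -0.38 and those of SIN3A a median of 0.59, and the members lay on the same side of 0.

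Across the 8 libraries some of the members fell into opposed patterns, given here as a description since the libraries share 4 groups. HDAC1 correlated with HDAC3 at 0.938 and with SIN3A at -0.946 and MTA2 at -0.935 (Pearson's r of log2 CPM, n = 8). SIN3A correlated with MTA2 at 0.857. MTA1 was in neither pattern, with r from -0.231 (SIN3A) to 0.367 (NCOR1). Other pairs were weaker too, such as NCOR1 with MTA2 (-0.477). Of 10524 genes with sufficient expression, those most like HDAC1 were the peroxisomal transporter ABCD3 (r = 0.995), the tubulin TUBB2B (0.995) and the phosphatase CTDSP2 (0.993). The closest to HDAC2 were the repair gene ERCC8, the purine synthesis gene PAICS and IFRD1 (0.998, 0.997 and 0.996). The closest to HDAC3 were the procollagen protease BMP1, AFAP1L2 and DENND1C (0.998, 0.998 and 0.997). Such likeness was common, with 813, 1361 and 1458 genes at r above 0.9 for HDAC1, HDAC2 and HDAC3.

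The remaining subunits of the same complexes put the members in context. Of 46 other subunits, 8 were higher and 14 lower in BRCA1-null controls, where 21.1% and 21% of all tested genes were, so the counts in each complex are read against those shares. Of 11 other CoREST subunits 4 were higher and 4 lower, and the RCOR1 paralogs went opposite ways. RCOR2 had 2.63 and 2.16 CPM in BRCA1+ controls and 8.66 and 9.40 CPM in BRCA1-null controls (log2 fold change 1.93 ± 0.14), while RCOR3 had 25.9 and 28.0 against 16.8 and 14.4 CPM (-0.79). ZMYM2, a zinc finger partner of CoREST, was higher (0.77) and the corepressor CTBP2 was lower (-0.45). Per length, RCOR2 remained low beside RCOR1, at 3.32 and 3.61 RPKM in BRCA1-null controls. Of 16 other SIN3 subunits 1 was higher, the chromodomain-family protein MORF4L1 (0.27), and 6 were lower, led by SAP30L (-0.57) and its paralog SAP30 (-0.54), a direction opposite to that of SIN3A, with a list median of -0.19. In NuRD, of 9 other subunits the cell cycle gene CDK2AP1 was higher (0.26) and the ATPase CHD4 was lower (-0.17), and the histone chaperones RBBP4 and RBBP7 shared by NuRD and SIN3 were both lower (-0.21 and -0.22). Of 4 other NCoR subunits only CORO2A was called, at 19.7 and 18.5 CPM in BRCA1+ controls against 37.9 and 43.5 CPM in BRCA1-null controls (1.10). In MiDAC, a mitotic complex of HDAC1 and HDAC2, TRERF1 was higher (0.63) and ZNF541 lower (-1.60), the latter from 12 to 47 counts per control library. Without either BRCA1-null control fewer of the 46 subunits were called, as were fewer genes over the whole table.

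With entinostat, averaged over both lines, 6 of the 46 other subunits were higher and 7 lower, beside 15.2% and 10.9% of all tested genes. RCOR2 was higher again (0.71), with 4.23 and 4.46 CPM in treated BRCA1+ cells and 13.0 and 13.5 CPM in treated BRCA1-null cells, as was the CoREST reader PHF21A (0.52), and CTBP1 was lower (-0.32). In NuRD, MBD3 was lower (-0.57), at 73.8 and 74.4 CPM in BRCA1+ controls against 44.0 and 49.2 CPM with entinostat and at 78.2 and 86.9 against 56.5 and 62.5 CPM in BRCA1-null cells. MTA3, the paralog of MTA2, was higher (0.31) while MTA2 itself was lower, and CDK2AP1 was lower (-0.17). Of the 16 SIN3 subunits 0 were higher and 4 lower, led by BRMS1 (-0.34) and SAP130 (-0.29), with a list median of -0.019. The NCoR subunits TBL1XR1 (0.32) and CORO2A (0.28) and the MiDAC subunit TRERF1 (0.35) were higher, and neither chaperone was called. With upper-quartile scaling 6 were higher and 4 lower, in a fit where 66.05% of all calls were higher, against 58.37% with TMM. Within BRCA1+ cells 7 were higher and 5 lower (8.15% and 6% of all tested genes). Within BRCA1-null cells 3 were higher and 4 lower (7.57% and 3.19%). The counts within a line fell without any 1 of its own 4 libraries, and so did the genes called over the whole table.

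The enzymes with the opposite activity, the histone acetyltransferases, were mostly lower with entinostat while HDAC1 was higher. Of 10 acetyltransferases 6 were called lower and 0 higher in BRCA1+ cells and 6 lower and 0 higher in BRCA1-null cells, where 6% and 3.19% of all tested genes were called lower, with medians of -0.37 and -0.33 against 0.00041 and 0.019 over all tested genes. Averaged over both lines, KAT2A, a SAGA acetyltransferase, was lowest (-0.48), with 83.2 and 78.0 CPM in BRCA1+ controls against 56.7 and 51.5 CPM with entinostat, and 97.7 and 88.4 against 72.7 and 69.2 CPM in BRCA1-null cells. KAT6B followed (-0.46). KAT2B, the paralog of KAT2A, was the only one called higher (0.46). The other 4 that were lower, named after their values were seen, were the coactivators CREBBP (-0.39) and EP300 (-0.37), KAT5 (-0.38) and KAT7 (-0.38). Between the lines in DMSO KAT7 was higher (0.48) and HAT1 (-0.40) and KAT6A (-0.25) were lower. The averaged count of 6 lower did not fall without any 1 library, while KAT2B lost its call without BRCA1+ entinostat replicate 2. Within the BRCA1-null line fewer were called lower without either of its controls, or without its entinostat replicate 1. Within the BRCA1+ line fewer were called lower without either of its entinostat libraries, or without its control replicate 2. Fewer genes were also called over the whole table in these fits, each of which left 1 library in a group.

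**Figure D5:**
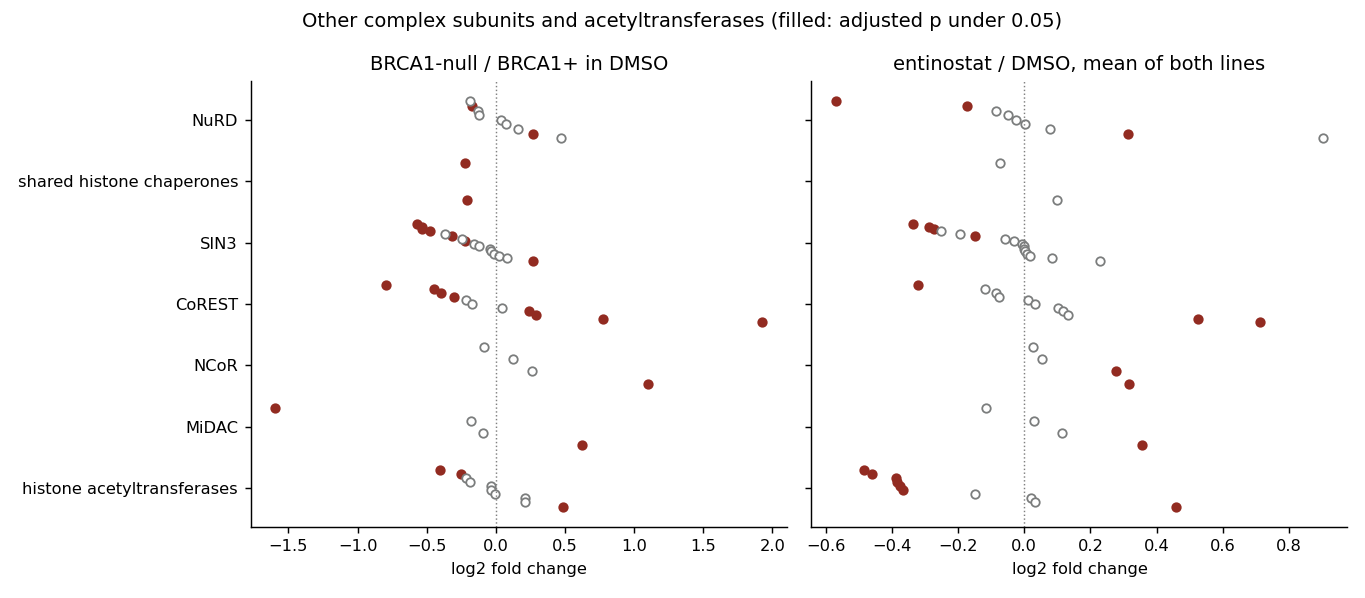
Log2 fold changes of the other subunits of each complex and of 10 histone acetyltransferases between the lines in DMSO (left) and with entinostat averaged over both lines (right), 1 point per gene, filled where the adjusted p was under 0.05. RCOR2 (1.93) and ZNF541 (-1.60) lay farthest out on the left, and 6 acetyltransferases lay between -0.48 and -0.37 on the right.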

How the data were processed

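Poly(A) RNA from 8 libraries of UWB1.289 cells was sequenced. The authors used TopHat for alignment to hg19 and NGSUtils for gene counts, and the deposited values are raw read counts per gene symbol with exonic lengths; how strand and reads with several positions were treated is not given in the sources used here. One entry without a name held 0 counts and was left out. Total counts were 31900158 to 53549893 per library. Taken over the genes as a whole, counting error was small beside the spread between replicates, which need not hold for each member. The labels gave the 4 groups. Genes were filtered with filterByExpr and scaled by TMM, and 1 mean per group was fitted over all 8 libraries with edgeR 4.0.16 (glmQLFit and glmQLFTest, R 4.3.3, 4 residual degrees of freedom before moderation); contrasts gave the line effect in each treatment, the entinostat effect in each line and averaged, and the interaction. P-values were adjusted by Benjamini-Hochberg over all 17714 tested genes with a threshold of 0.05, and intervals are 95%. CPM used TMM-scaled totals, and RPKM is that CPM per kilobase of deposited exonic length. Members, gene lists and tests were chosen with earlier results of these data known. Other subunits are named where they are the 2 called genes with the largest positive or negative change in a list, and the 3 genes most like HDAC1, HDAC2 and HDAC3 were taken by Pearson's r among genes whose log2 CPM averaged 3 or more. One subunit first listed was taken out of the lists and is not reported here. Alternatives were DESeq2 1.42.0 size factors and Wald test, upper-quartile scaling, no filter on low counts, a replicate block, a fit of only the groups compared, and each library left out. The alternatives for the lists of other subunits and acetyltransferases were added after the data were seen. Promoters came from a RefSeq table (GRCh38.p14), which matched all 9 members; gene positions are those of hg19 in the deposited table.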

Additional observations from a re-analysis of the deposited data

How the results depend on the processing

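The calls of HDAC1, HDAC2 and HDAC3 between the lines held in all 14 alternatives in either treatment, and each other member call between the lines was lost in at least 1; the cause of each change was not tested. Leaving out 1 library in turn gave 4 to 7 members called between the lines in DMSO, 0 to 2 with entinostat in BRCA1+, 0 to 1 in BRCA1-null and 2 to 4 averaged over both lines. The genes called over the whole table ranged from 4529 to 6917 between the lines in entinostat, 679 to 2414 with entinostat in BRCA1+, 512 to 1595 in BRCA1-null and 3059 to 4008 averaged. With entinostat in BRCA1+ 1 member was called without the filter on low counts, 1 by DESeq2 and 1 with only the groups compared, and in BRCA1-null 1 without the filter and 1 with only the groups compared, where 712 genes were called against 1906. The replicate numbers are not said to pair the libraries, and same-numbered libraries correlated in their deviations at 0.287 and 0.200 within a line and 0.129 and 0.0523 within a treatment. With the replicate number as a block 4 members and 4319 genes were called with entinostat in BRCA1+ and 4 members and 3641 genes in BRCA1-null, and the interaction called 1 gene, against 11 by DESeq2. The members gained under the block were HDAC8 (adjusted p = 0.0177) between the lines in DMSO, SIN3A (0.0304) and NCOR1 (0.0451) between the lines in entinostat, HDAC8 (0.00843) and MTA2 (0.0451) with entinostat in BRCA1+, HDAC8 (0.0453) and SIN3A (0.0412) with entinostat in BRCA1-null, and SIN3A (0.0375) averaged. Small changes that did not pass the test in any of these fits changed sign. MTA1 between the lines was 0.0061 in DMSO with upper-quartile factors and -0.065 to 0.010 with libraries left out, and in entinostat -0.0086 with DESeq2 size factors, -0.0017 without the filter, -0.0082 by DESeq2, -0.0058 with only the groups compared and -0.056 to 0.046 with libraries left out. HDAC2 with entinostat in BRCA1+ was 0.020 with upper-quartile factors. With libraries left out, entinostat values ranged from -0.14 to 0.013 for SIN3A in BRCA1+, and in BRCA1-null from -0.0089 to 0.11 for HDAC2, -0.11 to 0.047 for RCOR1, -0.063 to 0.024 for MTA1 and -0.087 to 0.048 for NCOR1. Averaged, they ranged from -0.015 to 0.042 for HDAC2 and -0.0087 to 0.081 for RCOR1. The interaction ranged from -0.25 to 0.011 for HDAC8, -0.018 to 0.085 for MTA1 and -0.020 to 0.12 for NCOR1, and was -0.0035 for MTA1 with upper-quartile factors. The median of the neighbours of RCOR1 between the lines in DMSO was 0.047 with 5 and 0.0014 with 20 on either side. That of HDAC1 was 0.11 with 5, that of HDAC2 -0.16 with 20 and that of HDAC3 -0.50 with 5. That of MTA1 was 0.10 with 5 and 0.17 with 20. With 2 libraries per group the SE was widest for HDAC8, the scarcest member (0.12 between the lines in DMSO against 0.056 for HDAC1).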
